A study of Mus musculus with 4 samples.

Results

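The genes of the AP-1 transcription factors, Fos, Fosb, Fosl1, Fosl2, Jun, Junb, Jund and Atf3, were examined in peak lists of accessible chromatin from mouse microglia. Every deposited peak that overlapped 1 of the 8 gene bodies or the 20 kb on either side of it was taken (GRCm38, GENCODE M21). After the stronger peaks of the 4 libraries (−log10 q of 2 or more) were merged, the gene windows held 113 of 155546 regions in the genome. ATAC-seq, in which the Tn5 transposase inserts adapters into open DNA, had been run on 2 libraries labelled WT and 2 labelled IRF8KO. The protein IRF8, which belongs to the interferon regulatory factors and helps to set the identity of microglia, is the factor labelled as knocked out, and the comparison asks how open chromatin differs without it. Both groups were C57BL/6, untreated and 3 months of age, and the microglia had been isolated without enzymes and sorted by flow cytometry. Their nuclei were tagmented with a Nextera kit, and the libraries were amplified with 12 PCR cycles. The labels give neither the kind of Irf8 allele nor the number of animals behind a library, so p-values measure only the spread between these libraries.

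AP-1 is a dimer of basic leucine zipper proteins. Jun proteins pair with each other, with Fos proteins or with Atf proteins, and the Fos and Jun pairs bind the sequence TGACTCA. Fos, Fosb, Jun, Junb and Atf3 are immediate early genes, whose transcription starts within minutes of a stimulus through MAP kinases acting on factors already in the cell. In microglia and other macrophages AP-1 binds enhancers together with the lineage factor PU.1.

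Regions with the largest differences, or with a deposited peak in 1 genotype alone, are shown first. Each sequence covers a region or the part of it around the strongest summit, is read 5′ to 3′ on the plus strand of GRCm38, and carries in capitals any match to the 10 motifs searched. The region 15.9 kb upstream of the Fosb start had the largest difference between the groups and contained none of these motifs (chr7:19325895-19326095). The region 47.3 kb upstream of the Atf3 promoter start had the largest difference in the other direction and contained TGACTCA, read here from the opposite strand (chr1:191230572-191230772). Its summit lay 12633 bp from the nearest annotated Atf3 start. The region 3.0 kb upstream of the Jund start had a peak in WT libraries only (chr8:70695816-70696003). The region 11.6 kb upstream of the Fosb start, with TGACTCA, had a peak in IRF8KO libraries only (chr7:19321563-19321741). The heights at this Fosb region were under the limit of detection of WT 1 and above that of WT 2.
Fosb, 15.9 kb upstream: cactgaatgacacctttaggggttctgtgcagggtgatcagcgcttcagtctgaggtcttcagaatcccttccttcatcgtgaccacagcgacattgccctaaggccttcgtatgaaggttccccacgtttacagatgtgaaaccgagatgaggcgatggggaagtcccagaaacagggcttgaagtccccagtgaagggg
Atf3, 47.3 kb upstream: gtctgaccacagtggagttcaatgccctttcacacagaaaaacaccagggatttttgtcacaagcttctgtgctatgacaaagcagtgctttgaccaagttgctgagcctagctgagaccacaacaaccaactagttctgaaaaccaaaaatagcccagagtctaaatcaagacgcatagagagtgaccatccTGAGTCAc
Jund, 3.0 kb upstream: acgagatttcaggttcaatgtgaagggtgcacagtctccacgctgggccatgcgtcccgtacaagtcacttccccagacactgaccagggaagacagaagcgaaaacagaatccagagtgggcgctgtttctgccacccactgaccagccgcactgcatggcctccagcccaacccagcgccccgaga
Fosb, 11.6 kb upstream: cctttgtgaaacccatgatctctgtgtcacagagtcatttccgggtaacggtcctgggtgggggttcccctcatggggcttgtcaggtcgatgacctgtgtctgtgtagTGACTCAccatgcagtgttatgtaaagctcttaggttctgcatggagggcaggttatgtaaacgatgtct

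A pair of promoter sequences is shown because they carry the elements through which these genes are known to be induced. The Jun sequence holds the last 120 bases before the start site on the minus strand, from the RefSeq promoter of GRCm38.p6 (chr4:95052223-95052342). Its capitals mark TGACATCA, the AP-1-like site to which Jun binds with Atf proteins and through which Jun is known to act on its own gene. The site begins at chr4:95052267 and lies 45 bp before the start. The Fosb sequence is the window around the promoter summit on the plus strand of GRCm38 (chr7:19310228-19310428), and its capitals mark a CArG box, the site of serum response factor, 16 bp from the summit.
Jun, 120 bases before the start: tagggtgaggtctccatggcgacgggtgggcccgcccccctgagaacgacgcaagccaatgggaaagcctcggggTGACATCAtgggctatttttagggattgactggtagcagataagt
Fosb, promoter summit: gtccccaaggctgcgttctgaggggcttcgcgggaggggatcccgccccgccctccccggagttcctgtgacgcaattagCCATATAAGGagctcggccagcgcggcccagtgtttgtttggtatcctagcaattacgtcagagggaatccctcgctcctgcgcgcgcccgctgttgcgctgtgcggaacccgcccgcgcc

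The libraries differed in depth with genotype. The WT libraries held 46948938 and 48896408 tags and the IRF8KO libraries 78793572 and 66224648, 1.51 times as many on average. The height of a peak is given throughout as normalised pileup, the number of extended cut sites over its summit per 1000000 header tags. On this scale the median of 58550 regions with a peak in all 4 libraries was 0.767 and 0.614 in WT 1 and 2 and 0.444 and 0.695 in IRF8KO 1 and 2, and the median difference was -0.31 (log2, IRF8KO minus WT). Differences are therefore also given centred, with each library's median log2 pileup over these regions set equal. The promoters of 8 microglial marker genes summed to a normalised pileup of 25.3 and 18.0 in WT and 9.95 and 16.6 in IRF8KO, and Sall1, at 2.11 and 2.05 in WT, had no peak in IRF8KO 1 and 0.151 in IRF8KO 2. The 5 border macrophage markers summed to 0.788 and 0.532 in WT and 2.32 and 3.25 in IRF8KO, with no peak at Lyve1 and Cd163 in any library. A promoter without a deposited peak added 0 to these sums. The 4 endothelial markers summed to 6.48 and 5.42 against 1.43 and 2.05. In WT most of that sum was Cdh5 (5.86 and 4.81 against 0.647 and 0.936 in IRF8KO). Pecam1 went the other way (0.192 and 0.245 against 0.533 and 0.876), Cldn5 had no peak in any library, and the 4 B and T cell markers had no peak. The monocyte sum was 2.17 and 1.66 against 0.596 and 0.951, all of it Vcan, with no peak at Ly6c2, Ccr2 and Plac8. Of the oligodendrocyte markers, Mog had 0.980 and 0.675 in WT, no peak in IRF8KO 1 and 0.166 in IRF8KO 2, Mbp had 0.703 and 0.450 against 0.279 and 0.604, and Mag had no peak. Neuronal markers summed to 0.469 and 0.470 against 0.317 and 0.121, neutrophil markers to 0.234 and 0.123 against 0.279 and 0.423, and the astrocyte sums overlapped. Of the astrocyte markers, Aldh1l1 was higher in IRF8KO (0.405 and 0.205 against 0.850 and 1.53) and Slc1a3 lower (0.682 and 0.777 against 0.216 and 0.393), as was Gfap (0.426 and 0.327 against 0.127 and no peak). Slc1a2 had a peak in WT 1 alone (0.256) and Aqp4 had none. The part of these markers and of depth in the differences below was not tested. The Irf8 promoter had a peak in all libraries (2.07 and 1.49 in WT, 0.863 and 1.36 in IRF8KO), so the lists do not show the deletion.

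The 8 windows together carried nearly the same number of peaks in both genotypes. WT 1 and 2 had 117 and 114 distinct peaks there, and IRF8KO 1 and 2 had 116 each. The difference of 0.5 peaks between the group means was smaller than the spread within WT (115.5 ± 2.12 against 116 ± 0, SD, n = 2; two-sided exact permutation p = 1). Peaks with −log10 q of 2 or more, called strict here, came to 100 and 85 for the WT and 89 and 95 for the IRF8KO libraries (p = 1 in the same exact test). With 2 libraries against 2 the smallest p this test can give is 0.333, so it cannot pass a threshold of 0.05 for any difference here. Of the 113 regions, 70 had a peak in all 4 libraries (61.9%; 37.6% of all 155546), and 22 rested on a strict peak in 1 library (19.5%; 43.1% of all). The nearest protein-coding start was that of the AP-1 gene itself for 71 regions and that of 14 other genes for 42.

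**Figure D1:**
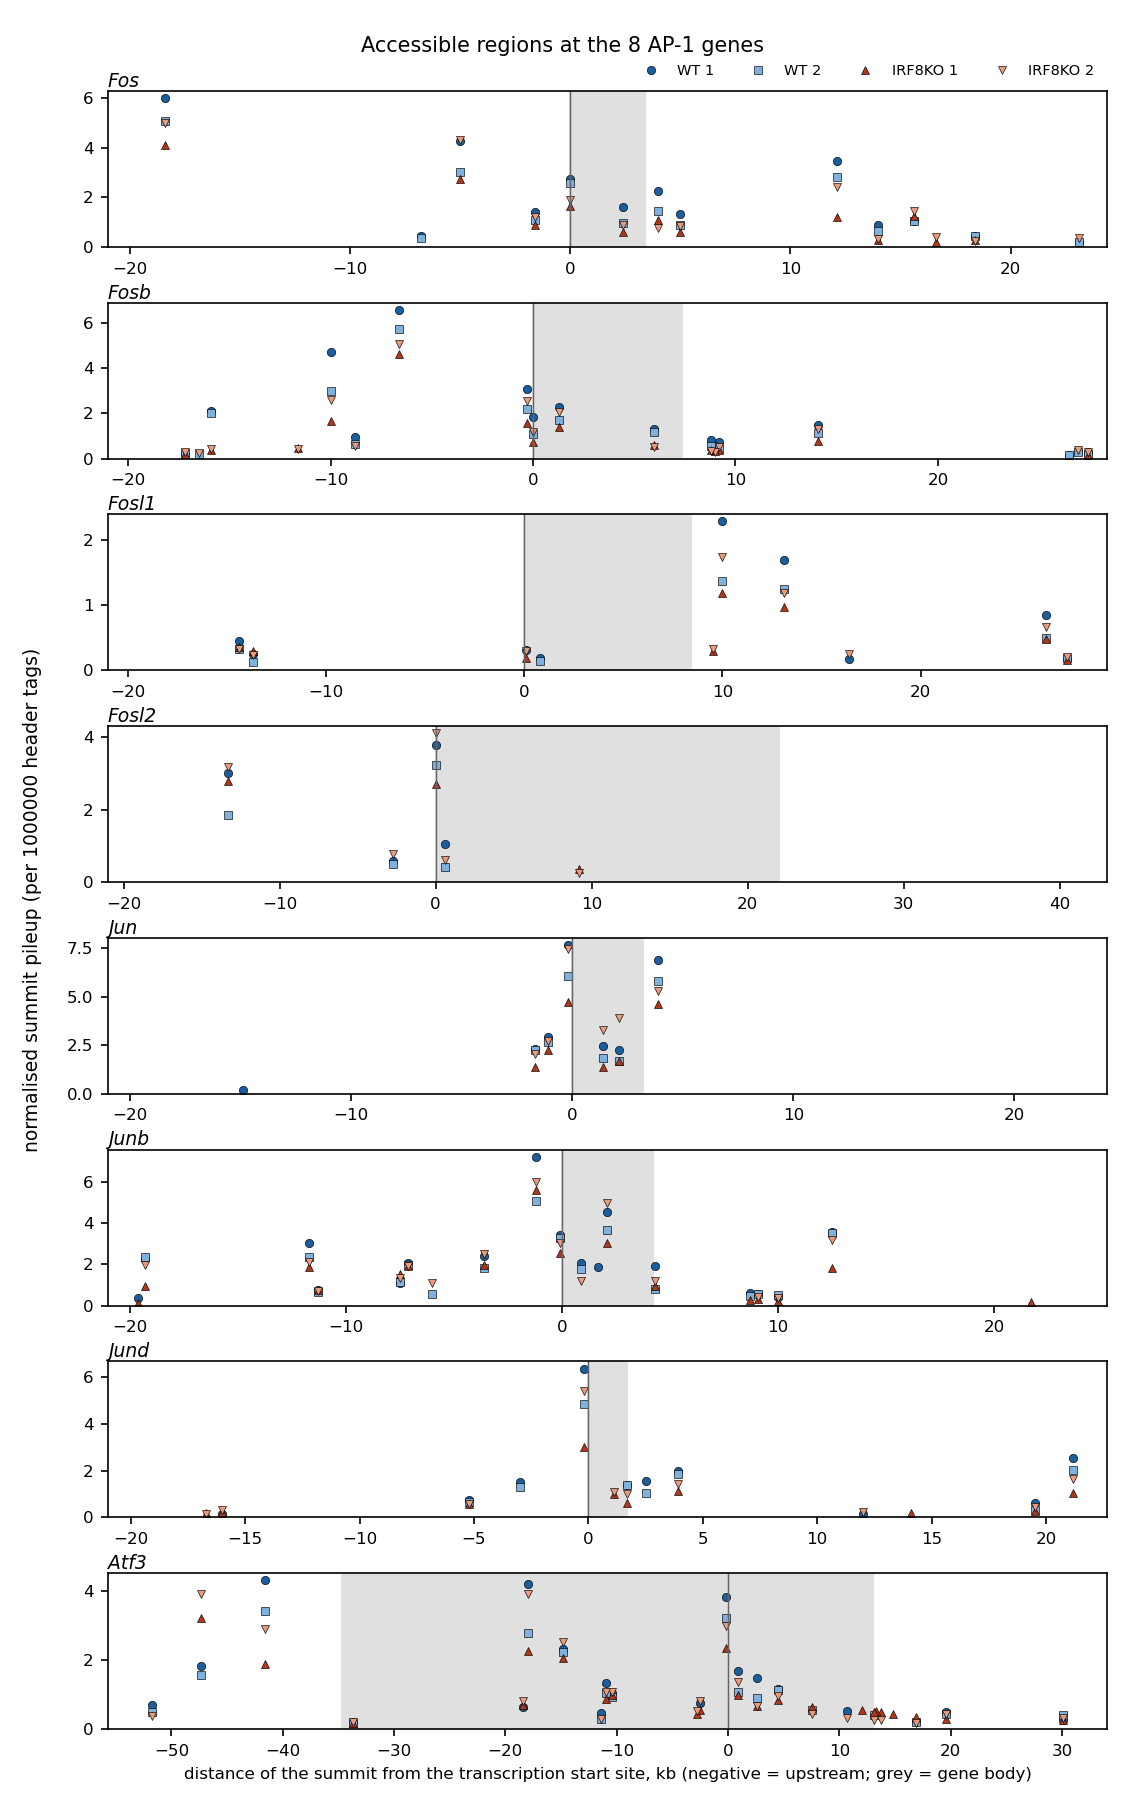
Normalised summit pileup per 1000000 header tags (y axis) of regions in the 8 gene windows against the distance of its summit from the transcription start site in kb (x axis), with 1 symbol per library and the gene body in grey. The tallest regions stand at the starts of Jun and Jund, 3.9 kb after the Jun start, 1.2 kb upstream of Junb, 6.6 kb upstream of Fosb and 18.4 kb upstream of Fos.

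At 7 of the 8 genes the promoter had a peak in every library, and at Fosl1 it did not. The promoter of a gene was taken as the strongest region within 500 bp of a start. Summit pileup is a height at 1 position and not a sum over a region. Where several peaks of a library overlapped a region the tallest was taken, and a longer region can hold more peaks.

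Among the Jun genes, Jun had the tallest promoter. Jun encodes c-Jun, the founding partner of the AP-1 dimer. Its promoter had a normalised pileup of 7.65 and 6.07 in WT and 4.73 and 7.43 in IRF8KO, which placed it at percentile 95.0 of 12430 protein-coding genes with a promoter region in all 4 libraries. The groups overlapped (6.86 ± 1.11 against 6.08 ± 1.91, SD, n = 2; log2 difference -0.20). Jund, which is expressed more steadily than the other Jun genes, had 6.37 and 4.87 in WT and 3.01 and 5.39 in IRF8KO, and its groups overlapped as well (log2 difference -0.47). Junb, whose protein can compete with c-Jun for the same partners, had 3.41 and 3.27 in WT and 2.53 and 3.04 in IRF8KO. Both IRF8KO libraries were below both WT libraries at Junb, by -0.27 on the log2 scale.

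The Fos genes had lower promoters than Jun. Fos had a normalised pileup of 2.75 and 2.60 in WT and 1.66 and 1.90 in IRF8KO (2.67 ± 0.106 against 1.78 ± 0.170, SD, n = 2). Both IRF8KO libraries were below both WT libraries, and the log2 difference of -0.59 was the largest among the 7 promoters. Fosb had 3.07 and 2.21 in WT and 1.56 and 2.54 in IRF8KO, and the groups overlapped (log2 difference -0.39). Another, lower region, with its summit 47 bp upstream of the Fosb start, had 1.85 and 1.10 in WT and 0.736 and 1.16 in IRF8KO. Its groups overlapped (log2 difference -0.63), and once the library medians were set equal it was lower in both IRF8KO libraries (-0.32). Fosl2, which encodes Fra-2, had 3.77 and 3.23 in WT and 2.70 and 4.11 in IRF8KO, and its groups overlapped too (log2 difference -0.07). Fosl1, which encodes Fra-1, had 0.319 in WT 1, no peak in WT 2, and 0.190 and 0.302 in IRF8KO. These summits held 15, 15 and 20 cut sites, and Fosl1 stood far below the other 7 promoters in every library.

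Atf3 encodes a stress-induced factor that forms dimers with Jun proteins and can repress transcription. Its promoter had a normalised pileup of 3.81 and 3.21 in WT and 2.35 and 2.97 in IRF8KO, and both IRF8KO libraries were lower (log2 difference -0.40). With 1 library left out, the difference at Jund ran from -0.89 to -0.047 and that at Fosb from -0.74 to -0.037. It ran from -0.58 to -0.23 at Atf3, from -0.40 to -0.14 at Junb and from -0.68 to -0.49 at Fos. Each was closest to 0 without IRF8KO 1 and farthest without IRF8KO 2. In WT the order of the promoters from tall to short was Jun, Jund, Atf3, Fosl2, Junb, Fos and Fosb. The WT values of Jun and Jund overlapped, as did those of Atf3, Fosl2 and Junb among themselves and those of Fos and Fosb.

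None of these promoters passed the test. The exact permutation p was 0.333 for Fos, Junb and Atf3 and 0.667 or 1 for the other 4, and after Benjamini-Hochberg adjustment over 12430 genes the values ran from 0.752 to 1. The median difference was -0.39 for the 7 AP-1 promoters and -0.34 for all promoters. After centring, 2 of the 7 were higher in both IRF8KO libraries (Fosl2 by 0.24 and Jun by 0.10), where 21.4% of all promoters were. Centring left 1 lower in both (Jund, by -0.16), where 26.3% of all promoters were. Before centring 3 of the 7 were lower in both, Fos, Junb and Atf3, where 40.6% of all promoters were, and at these the groups overlapped once the medians were set equal. None of the 7 was higher in both before centring, where 3.70% of all promoters were. On the authors' fold enrichment over local background the differences at the 7 promoters lay between -0.12 and 0.12.

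**Figure D2:**
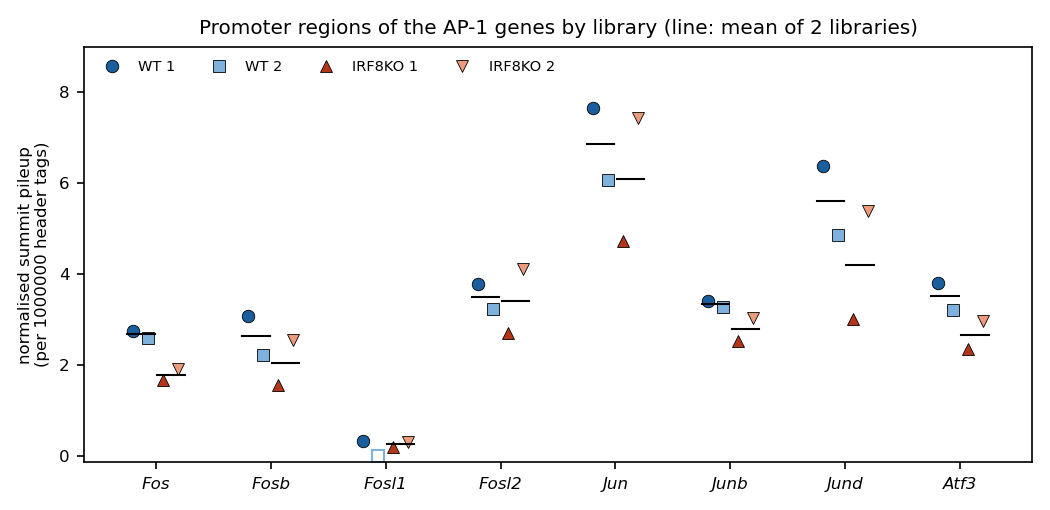
Normalised summit pileup per 1000000 header tags (y axis) at the promoter of each AP-1 gene (x axis), with 1 symbol per library, lines for the mean of 2 libraries and an open symbol where the list has no peak. Jun and Jund are the tallest and Fosl1 the shortest, and IRF8KO 1 is below the other IRF8KO library at all 8 promoters.

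The gene whose promoter followed an AP-1 promoter most closely was found for each of the 7 by the Euclidean distance of the 4 log2 values. The nearest of 12430 genes were Atp5g3 to Fos, Psip1 to Fosb, Akr1b3 to Fosl2, Coq8a to Jun, Tdrd7 to Junb, Tmem86a to Jund and Vdac2 to Atf3, at distances of 0.037 to 0.094. No AP-1 gene was nearest to another.

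Across the windows, few regions were present in 1 genotype alone. A region was called WT-specific where both WT libraries had a strict peak and neither IRF8KO library had a deposited peak, and IRF8KO-specific in the converse case. Of the 113 regions, 3 were WT-specific (2.65%), where 5.58% of all regions were, and 5 were IRF8KO-specific (4.42%), where 3.86% of all regions were. Both shares were near or under the genome-wide ones. With 1 library left out the WT-specific count rose to 5 without WT 1 or IRF8KO 1, 7 without WT 2 and 9 without IRF8KO 2, while the genome-wide share became 7.03% to 17.9%. The IRF8KO-specific count became 10 without WT 1 and 13 without IRF8KO 2, where the genome-wide shares were 6.09% and 14.4%. A missing peak means that the pileup did not reach the authors' p cutoff of 0.01 and not that it was 0. The pileup needed to reach that cutoff was therefore computed from the local background at the neighbouring peaks of the same library.

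The WT-specific regions lay at Fos and Jund. The Jund region 3.0 kb upstream (chr8:70695816-70696003, intergenic) was the tallest of the 8 specific regions, with a normalised pileup of 1.53 and 1.29 in WT. These heights had −log10 q of 15.2 and 14.0 and exceeded the 0.725 needed for a peak in the IRF8KO library with the higher limit. A Fos region 6.8 kb upstream (chr12:85467039-85467155, intergenic) had 0.447 and 0.368 in WT. Both exceeded the 0.305 needed in IRF8KO 1, and the lower was under the 0.408 needed in IRF8KO 2, a limit taken from a peak 11658 bp away, beyond the 10 kb of the local background. A CArG box lay 46 bp from its summit. The WT heights thus exceeded the limits of both IRF8KO libraries at the Jund region and that of IRF8KO 1 at the Fos region.

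The IRF8KO-specific regions were spread over Atf3, Fosb, Fosl1, Fosl2 and Jund. The Fosl1 region 9.5 kb downstream of the start (chr19:5457032-5457129), in a coding exon of Ccdc85b, had a normalised pileup of 0.292 and 0.332 in IRF8KO against a need of at most 0.256 in WT. It was the only 1 of the 5 whose lower value exceeded that limit. The Fosb region 11.6 kb upstream (chr7:19321563-19321741), in the non-coding gene D830036C21Rik, had 0.457 and 0.438 against 0.532, and TGACTCA lay 8 bp from its summit. The Fosl2 region 9.2 kb into the gene (chr5:32144875-32145124, intron) had 0.355 and 0.242 against 0.447, a limit taken from a peak 8572 bp away. At the region itself the limits in IRF8KO 1 and 2 were 0.127 and 0.106, so the WT limit there is not known. The Atf3 region 2.8 kb upstream of the promoter start (chr1:191186118-191186257, intron) had 0.432 and 0.529 against 0.573. The Jund region 1.1 kb after the start (chr8:70699981-70700102, coding exon) had 0.990 and 1.10 against 1.13. At the Fosb, Atf3 and Jund regions these heights were under the limit of WT 1, so they could have gone without a deposited peak in that library. The limit of WT 2 was 0.409 at the Fosb region and 0.859 at the Jund region, and both IRF8KO heights exceeded it there. At the Atf3 region the limit of WT 2 was 0.573, above both heights.

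A further Jund region, 2.5 kb after the start (chr8:70701429-70701963) and named after its values were seen, had peaks in WT libraries only without meeting the rule. Its normalised pileup was 1.58 and 1.02 in WT, with −log10 q of 5.11 and 1.85, the latter below the limit of 2. Of the 35 regions that were neither specific nor present in all 4 libraries, 3 had peaks in both WT libraries alone, 3 in both IRF8KO libraries alone, 16 in 3 libraries and 7 in 1.

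**Figure D3:**
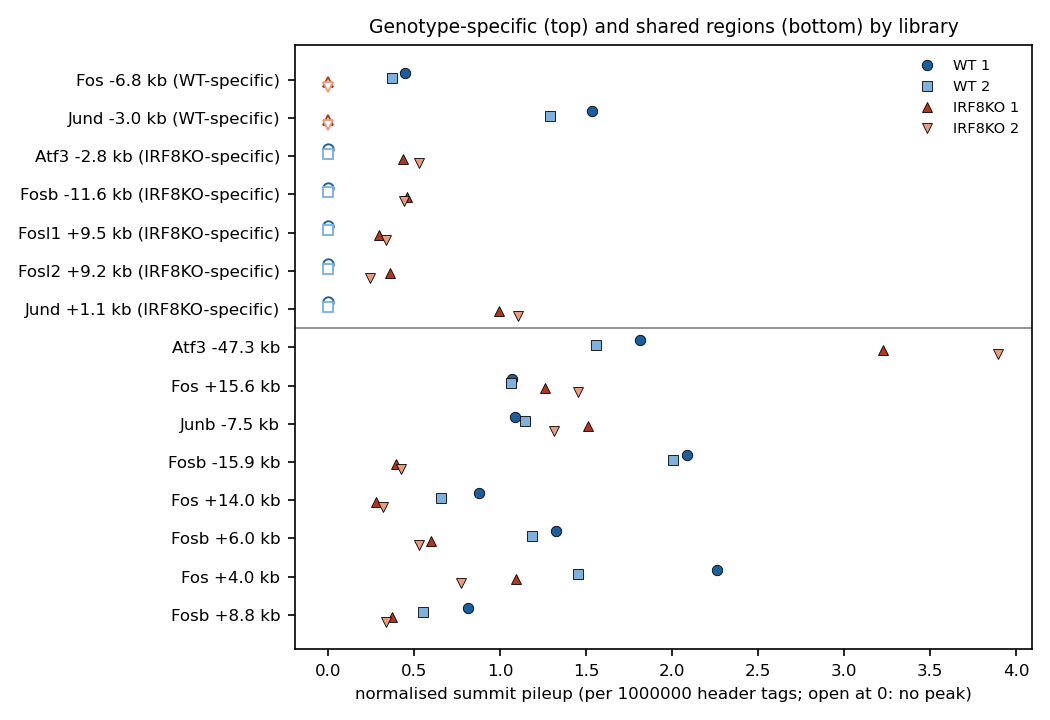
Normalised summit pileup per 1000000 header tags (x axis) by library for 7 genotype-specific regions (above the line) and 8 shared regions whose groups did not overlap, the 5 of largest difference among those lower in IRF8KO and all 3 that were higher (below the line), with the distance from the start in kb on the y axis. The Fosb region 15.9 kb upstream stands at 2.004 or more in WT and at 0.423 or less in IRF8KO, and the Atf3 region 47.3 kb upstream at 3.22 and 3.90 in IRF8KO.

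Among the 70 regions with a peak in all 4 libraries, 3 were higher in both IRF8KO libraries than in both WT libraries (4.29%), where 11.9% of all such regions were. Lower in both were 32 (45.7%), where 37.1% of all such regions were. With 1 library left out, the higher count was 12 of 72 without WT 1 and 18 of 79 without IRF8KO 1, where 24.0% and 33.8% of all were. It was 5 of 75 without WT 2 and 5 of 70 without IRF8KO 2, where 15.5% and 12.3% of all were. The lower count reached 54 of 75 without WT 2 and 57 of 70 without IRF8KO 2, where the genome-wide lower shares were 57.0% and 74.0%. IRF8KO 1 had the lowest value at 51 of the 70 and WT 1 the highest at 48. The medians over all 58550 regions were likewise lowest in IRF8KO 1 (0.444) and highest in WT 1 (0.767). After centring, 15 were higher in both (21.4%), where 29.5% of all were, and 17 were lower in both (24.3%), where 29.0% of all were. The median centred difference was 0.0079 for the 70 regions and -0.0019 for all 58550. The median normalised pileup was 1.25 at the 70 regions and 0.597 at all such regions. After centring, both shares at the AP-1 windows were thus below the genome-wide shares, and the differences described next were those of single regions.

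The Fosb region 15.9 kb upstream (chr7:19325821-19326204), whose sequence without motif is the first of those shown above, lies in the non-coding gene D830036C21Rik. It had a normalised pileup of 2.09 and 2.004 in WT and 0.393 and 0.423 in IRF8KO. In raw numbers the summit held 98 and 98 cut sites in WT and 31 and 28 in the deeper IRF8KO libraries. WT was 5.01-fold higher, a log2 difference of -2.33 (-2.02 centred, percentile 1.48 of all regions). With any 1 library left out the log2 difference stayed between -2.38 and -2.27, and on fold enrichment it was -1.60.

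The Atf3 region 47.3 kb upstream of the promoter start (chr1:191230331-191231010) is intergenic, beyond the 5′ end of the longest annotated Atf3 transcript. The nearest annotated Atf3 start was 12633 bp from the summit of this region, and 6908 bp from that of the region 41.6 kb upstream. The region 47.3 kb upstream had a normalised pileup of 1.81 and 1.55 in WT and 3.22 and 3.90 in IRF8KO. IRF8KO was 2.11-fold higher, a log2 difference of 1.08 (1.38 centred, percentile 95.3). The difference was 0.94 to 1.22 with any 1 library left out and 0.56 on fold enrichment. The next Atf3 region, 41.6 kb upstream (chr1:191223971-191225393), was lower in IRF8KO, with 4.30 and 3.42 in WT and 1.89 and 2.88 in IRF8KO (log2 difference -0.71). Adjacent regions upstream of Atf3 thus differed in opposite directions.

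The same held downstream of Fos. The region 14.0 kb after the start (chr12:85487831-85488009, intergenic) had a normalised pileup of 0.873 and 0.654 in WT and 0.279 and 0.317 in IRF8KO (log2 difference -1.35, centred -1.04). The region 15.6 kb after the start (chr12:85489275-85489608, intergenic) had 1.06 in both WT libraries and 1.26 and 1.45 in IRF8KO (log2 difference 0.34, centred 0.65). In both cases the groups did not overlap, also after centring and on fold enrichment. A match to the CEBP motif lay 55 bp from the summit of the region that was higher, and none of the 10 motifs lay at the lower one. Just beyond the 3′ end of Fos, the region at 4.0 kb (chr12:85477255-85478186) had 2.26 and 1.45 in WT and 1.09 and 0.770 in IRF8KO (log2 difference -0.98), and its groups overlapped once centred.

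The other named regions belonged to Fosb and Junb. The Fosb region 6.0 kb after the start (chr7:19303872-19304091, in a UTR exon) had a normalised pileup of 1.32 and 1.19 in WT and 0.596 and 0.529 in IRF8KO (log2 difference -1.16, centred -0.85). The region 8.8 kb after the Fosb start (chr7:19301211-19301442, intergenic) had 0.809 and 0.552 in WT and 0.368 and 0.332 in IRF8KO (log2 difference -0.94, centred -0.63). Together with the region 15.9 kb upstream, 3 of the 5 largest lower differences were at Fosb. The Junb region 7.5 kb upstream (chr8:84986101-84986421, intergenic, nearest start that of Hook2) had 1.09 and 1.15 in WT and 1.51 and 1.31 in IRF8KO (log2 difference 0.34, centred 0.64), but its groups overlapped on fold enrichment. The exact permutation p was 0.333 for each of these 8 regions, the smallest possible.

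The centred directions are given gene by gene, beside 29.5% higher and 29.0% lower among all regions. At Fos 2 of 11 regions were higher and 4 lower, at Fosb 1 of 12 higher and 5 lower, and at Jund 0 of 6 higher and 4 lower. At Jun 2 of 6 were higher, at Fosl1 2 of 6 and at Fosl2 2 of 2, with none lower in these 3 windows. The nearest protein-coding start was that of another gene for every Fosl1 region counted here. It was that of Iqcn and Gm3336 for the lower Jund regions 3.9 and 21.2 kb after the start. Junb had 3 higher and 3 lower of 13, and Atf3 3 higher and 1 lower of 14. All 3 lower Junb regions were nearest to the starts of other genes. Before centring, higher and lower counts were 0 and 2 at Jun, 0 and 1 at Fosl1, 0 and 0 at Fosl2, and 1 and 7 at Junb. They were 1 and 5 at Atf3, 1 and 8 at Fos, 0 and 5 at Fosb and 0 and 4 at Jund. Among all regions 11.9% were higher and 37.1% lower before centring. The median centred difference ran from -0.34 at Fos and -0.23 at Jund to 0.44 at Fosl2. These counts are small and regions of 1 gene are not independent, so the genes were not tested against each other.

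**Figure D4:**
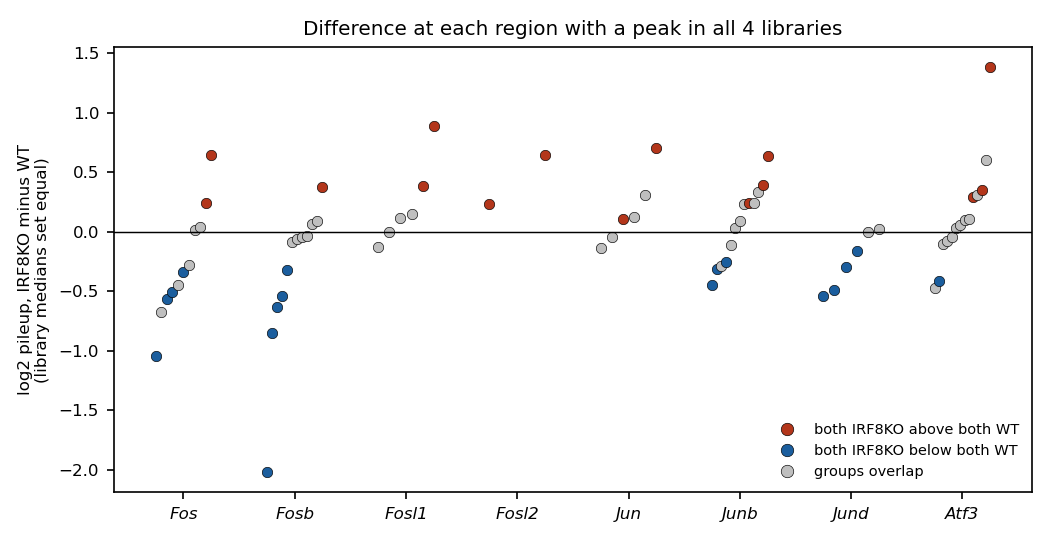
Centred log2 difference, IRF8KO minus WT (y axis), of each of the 70 regions with a peak in all 4 libraries, by gene (x axis). Red marks the 15 regions higher in both IRF8KO libraries, blue the 17 lower in both and grey those whose groups overlap, and the Fosb region at -2.02 and the Atf3 region at 1.38 lie farthest from 0.

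The motif of AP-1 itself occurred in the windows of 5 of its own genes. TGACTCA lay within 100 bp of the summit, on either strand, in 13 of the 113 regions (11.5%) and in 5.91% of all 155546. The Atf3 window had 4 of the 13, that of Fosb 3, Jund 3, Junb 2 and Fosl2 1. All 3 at Jund were nearest to the start of another gene (Lsm4 or Iqcn). So was 1 each at Junb (Hook2), Fosb (Rtn2) and Atf3 (Fam71a). Of these 13, 6 had a peak in all 4 libraries, and after centring 5 of the 6 were higher in both IRF8KO libraries, where 48.8% of all 3598 such regions with TGACTCA were. The 5 were the Atf3 regions 47.3 kb upstream and 10.4 kb upstream (centred log2 difference 0.35), the Fosb region 17.2 kb upstream (0.37), the Junb region 3.6 kb upstream (0.40) and the Fosl2 promoter (0.24).

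The Junb region 3.6 kb upstream had a normalised pileup of 2.39 and 1.82 in WT and 1.97 and 2.51 in IRF8KO, so that its groups overlapped before centring. The same was true of the Atf3 region 10.4 kb upstream, with 1.04 and 0.941 in WT and 0.977 and 1.07 in IRF8KO. Before centring, 1 of the 6 was higher in both (Atf3, 47.3 kb upstream) and 1 lower (Junb, 7.1 kb upstream), where 26.3% of all regions with TGACTCA were higher and 25.9% lower. On fold enrichment 3 were higher and none lower. On that scale no share was computed for all regions with TGACTCA. Among all regions with a peak in all 4 libraries 18.2% were higher and 30.6% lower. The groups separated on all 3 scales at the Atf3 region 47.3 kb upstream, and on 1 or 2 of them at each of the other 5 regions. Of the 7 regions with TGACTCA that lacked a peak in some library, WT 1 had a peak in 4 and WT 2 in 1. IRF8KO 1 had a peak in 5 and IRF8KO 2 in all 7, and the IRF8KO libraries were also the deeper ones. No count by library was made for all regions of this kind. Genome-wide, TGACTCA was more frequent where a region was IRF8KO-specific (15.2%) than where it was WT-specific (4.27%). Whether these 7 regions lean further to IRF8KO than others with the motif was not tested.

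The other motifs were described in the same way. The ETS-IRF element was found in 4 regions (3.54%; 4.30% of all), of which 1 was WT-specific. At this element PU.1 and IRF8 are known to bind side by side. The other 3, with a peak in all libraries, were 2 regions of Atf3 and 1 of Fosb, and 0 of the 3 were lower in both IRF8KO libraries after centring, where 56.0% of all 2333 such regions with the element were. Before centring 1 of the 3 was lower in both (Fosb, 6.6 kb upstream), where 60.4% of all with the element were. On fold enrichment 1 was (Atf3, 16.9 kb after the start, nearest to the Fam71a start). On that scale 30.6% of all regions with a peak in all libraries were lower, and no share was computed for those with the element. The Fosb one, 6.6 kb upstream, was the tallest region of that gene, with a normalised pileup of 6.56 and 5.71 for the WT and 4.61 and 5.06 for the IRF8KO libraries. The CArG box was found in 6 regions (5.31%; 1.06% of all). They included the WT-specific Fos region 6.8 kb upstream, the Fos region 12.1 kb after the start, the Fosb promoter, and 2 regions in the Junb window. Of these 2, 1 lay 179 bp from the Hook2 start. TGACGTCA, the cyclic AMP response element, occurred once, in the promoter region of Jund 49 bp from the summit (0.885%; 0.570% of all). GAGGAAGT, a PU.1 motif, was found in 3 regions (2.65%; 7.73% of all), TGTGGTT, a RUNX motif, in 4 (3.54%; 5.57%) and the CEBP motif in 14 (12.4%; 9.54%). The IRF motif was found in 3 (2.65%; 3.13%), and TGACATCA (1.52% of all) and TGACGTTT (0.260% of all) in 1 each. In RefSeq promoters, which cover 250 bases before and 50 after a start and were found for 7 of the 8 genes, TGACATCA occurred at Jun and in 3.62% of all 32817. These matches describe letters in a window and are not evidence of binding.

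The genes that act on or with AP-1 were described by their promoters. The 19 genes described here were MAP kinases and their activators, the Elk factors and Srf that act on CArG boxes, partners such as Creb1, Atf2 and Jdp2, and the regulators Dusp1, Fbxw7 and Cop1. All 19 had a promoter region in every library. Before centring 0 were higher and 12 lower in both IRF8KO libraries, with a median difference of -0.43, where 3.70% of all promoters were higher and 40.6% lower. After centring 2 were higher in both (Map2k7 and Crem) and 6 lower (Mapk8, Mapk9, Mapk14, Elk1, Elk3 and Fbxw7), with a median of -0.13. Among all promoters 21.4% were higher and 26.3% lower after centring. Mapk8, which encodes the Jun kinase JNK1, had 2.73 and 2.52 in WT and 1.14 and 1.96 in IRF8KO (centred -0.50). Elk3 had the largest difference of the list, with 1.73 and 1.55 in WT and 0.685 and 1.09 in IRF8KO (centred -0.62). No promoter of the list can pass the exact test in this design.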

How the data were processed

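Per the submitters' processing notes, reads were handled with bcl2fastq, Bowtie2, MACS2 2.1.1.20160309 and deepTools on mm10. Peaks were called by the authors library by library at a p cutoff of 0.01, per the file headers, with cut sites shifted by 37 bp and extended to 73 bp and a local background of 10 kb. The pileup the authors deposited is an unscaled signal at the summit. Their deposited fold enrichment divides it, as a ratio, by the local background, and p and q are deposited as −log10 values. Although a q calculation is declined per the file headers, the q column is filled, and its values were used as deposited. Tag size was 50 in WT and 49 in IRF8KO libraries, so tag size, depth and genotype cannot be told apart.

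Intervals listed several times were reduced to 1 peak. Strict peaks (−log10 q of 2 or more) of 20 chromosomes were merged (1 bp overlap) into regions, and pileup was given per 1000000 header tags. Named were all 8 genes, their promoters, every genotype-specific region and the 5 largest differences per direction whose groups did not overlap. A gene of the pathway list, a marker gene and a Fos region are not reported here. Members, gene lists and motifs were chosen with earlier results of these data known. Python 3.11.15, numpy 2.4.6, pandas 2.3.3 and pysam 0.24.0 were used, and the scripts were tested on simulated data. Two-sided exact permutation tests compared libraries. Alternatives were the window, the q limit, the overlap, centring, fold enrichment, leaving out each library, a replicate block, and, chosen after seeing the data, only regions nearest to an AP-1 start.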

Additional observations from a re-analysis of the deposited data

How the results depend on the processing

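The difference in deposited peaks was -3.5 with 10 kb flanks and 8.5 with 50 kb flanks (exact permutation p = 0.333), and ran from -1 to 2 with 1 library left out, and that in strict peaks from -8 to 7. With 50 kb flanks, of 230 regions 10 were WT-specific and 12 IRF8KO-specific, and of 135 with a peak in every library 13 were higher and 57 lower in both IRF8KO libraries. With 10 kb flanks 1 of 51 was higher. The genome-wide shares do not depend on the flanks. At a −log10 q limit of 5, 2 of 90 regions were IRF8KO-specific (3.51% of all). Leaving out 1 library gave 5 to 9 WT-specific, 5 to 13 IRF8KO-specific, 5 to 18 higher and 33 to 57 lower regions, since fewer libraries then had to fulfil each rule. The genome-wide shares moved as well, to 7.03% to 17.9% WT-specific, 5.69% to 15.0% IRF8KO-specific, 12.3% to 33.8% higher and 40.2% to 74.0% lower. The higher and lower counts were 15 and 17 after centring, 9 and 17 of 70 on fold enrichment (18.2% and 30.6% of all), and 12 and 12 of 47 for centred regions nearest to an AP-1 start, an alternative chosen after seeing the data. The median promoter difference was -0.083 centred, 0.024 on fold enrichment, and between -0.58 and -0.047 with 1 library left out, the ends being those without IRF8KO 2 and without IRF8KO 1. Centring turned the difference positive at Fosl2 (0.24), Jun (0.10) and Junb (0.034), and fold enrichment did so at Atf3 (0.024), Fos (0.025), Fosb (0.12), Jun (0.016) and Jund (0.080). With 1 library left out it ran from -0.37 to 0.23 at Fosl2 and from -0.53 to 0.12 at Jun. The cause of these changes was not tested.

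Same-numbered libraries did not deviate together (r = 0.004 over 58550 regions), and the labels do not say that a number marks a shared animal. With a replicate block the median promoter difference was again -0.39, the peak differences were 0.5 and -0.5, and the smallest sign-flip p was 0.5. Lists without reads at positions that lack a peak, depth that follows genotype and 2 libraries a group limit every value here.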
